A study of Mus musculus with 4 samples.

Results

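Zfp genes encode zinc finger proteins, and their mRNAs were compared here between RNA that came down with the ribosome and total RNA. Genes with a GENCODE M21 symbol of Zfp followed by digits alone numbered 366 in the count tables, of which 365 were protein-coding. Of these, 165 had at least 20 counts in each of the 4 libraries and form the set described below, among 12336 genes tested and 31053 genes listed in all. A further 168 had some counts but fell below 20 in at least 1 library, and 32 had 0 counts in every library. The members were thus selected on their counts, so that their abundance is partly a matter of the choice. The IP to total RNA ratio was no criterion, but the choice was not independent of it. The total RNA libraries were the shallower ones, the lowest count lay in 1 of them for all 165 members, and 67 of the 99 Zfp genes that were tested but fell outside the set reached 20 counts in both IP libraries. A gene low in total RNA was therefore left out more readily than one low in the IP, and values over all Zfp genes tested are given beside those of the members.

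The libraries came from cultures of primary cortical neurons of wild-type mice, which the study's methods describe as prepared from C57BL/6J embryos at embryonic day 18. In enhanced crosslinking and immunoprecipitation (eCLIP), RNA is crosslinked to protein in the cell, trimmed with RNase I and pulled down with an antibody, which here recognised RPS2 of the small ribosomal subunit. Each group had 2 libraries, IP and total RNA, the latter having been set aside from the same samples ahead of the IP, so that each replicate number joins an IP library to a total RNA library. The labels give rRNA depletion for the IP libraries alone, whereas the methods place it after library preparation and name no libraries, so total RNA may have been depleted too. If the labels hold, an effect of that step and of the IP cannot be told apart.

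A C2H2 zinc finger is a short fold in which a pair of cysteines and a pair of histidines hold a zinc ion, and fingers in a row read out a stretch of DNA. Many members of the family also carry a KRAB domain, which recruits the corepressor TRIM28 (also known as KAP1) and through it silences retroelements and imprinted genes by heterochromatin. A SCAN domain, which lets these proteins pair with one another, is found in a smaller number. In neurons some family members are known as regulators of differentiation, and others act on RNA or on the ribosome itself. Because the mRNA of each gene passes over the ribosome like any other, the ratio of IP to total RNA serves in this study as a measure of ribosome association per gene.

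Library totals ran from 4899718 to 16460545 counts. Neuron markers were high throughout, with 9 of 9 above 0 in every library and a summed level of 5851 to 6576 CPM (counts scaled by library size). Glial markers followed the replicate number. The 5 astrocyte markers summed to 1840 CPM (IP) and 1522 CPM (total RNA) in replicate 1, and to 505 and 484 CPM in replicate 2. The 5 microglia markers summed to 60.1 and 58.8 CPM in replicate 1 and to 6.83 and 4.93 CPM in replicate 2. Oligodendrocyte markers stayed between 35.6 and 45.7 CPM, and endothelial markers between 1.08 and 2.82 CPM, with Cldn5 at 0 in every library. The astrocyte and microglia sums differed more between the replicates than between IP and total RNA within a replicate. The methods do not state whether the replicates were separate cultures. Single markers also differed in the IP contrast: the astrocyte genes Aqp4 (log2 fold change 0.49, adjusted p = 8.5e-04) and Slc1a3 (0.34, adjusted p = 0.0084) and the neuronal Snap25 (0.37, adjusted p = 0.0027) were called higher in the IP. Aqp4 was at 0.73 in replicate 1 and 0.17 in replicate 2. The astrocyte genes Gfap (0.09), Gja1 (0.19) and Aldh1l1 (−0.22) were not called. Snap25 was the 1 neuron marker called of 9, and 3 of the 9 lay below 0. The part of these differences in the results below was not tested.

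The Zfp members had, in sum and in their median, less RNA in the IP than in total RNA. Their counts, summed and scaled to effective library size, came to 3007 and 3116 CPM in the IP libraries of replicates 1 and 2. In total RNA they came to 3521 and 3418 CPM. The IP held less in both replicates, at a ratio of 0.854 in replicate 1 and 0.912 in replicate 2. As plain shares of all counts, the members made up 0.253% and 0.349% of the IP libraries and 0.299% and 0.424% of the total RNA libraries. The median member had a log2 fold change (IP over total RNA) of −0.12, with a median of −0.24 in replicate 1 and −0.07 in replicate 2. The median over all genes tested was 0.01, and 0.01 in each replicate. Of the 165 members, 110 lay below 0 and 55 above, whereas all genes tested split into 6011 below and 6325 above. In both replicates 81 members lay below 0 and 31 above, and all genes were close to even at 3977 below and 4228 above. The 9556 genes of any kind with 20 counts in every library, which met the same minimum, had a median of −0.01. Over all 264 Zfp genes tested the median was −0.06, and 154 lay below 0, so part of the members' shift went with the minimum. In as many Zfp genes taken by mean CPM over IP and total RNA, 155 of them members, the median was −0.10.

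With the replicate number as a block, 19 members were called lower in the IP and 1 was called higher, at an adjusted p under 0.05 over all genes tested. The background in this comparison was 7.55% of all genes tested called lower and 6.63% called higher, against 11.5% and 0.61% of the members. Among genes that met the same minimum it was 9.49% lower and 7.92% higher. Of all 264 Zfp genes tested 20 were called lower (7.58%) and 1 higher (0.38%). The share called lower was thus near the background, and the share called higher was below it in each of these sets. The changes were small: the called-lower members fell by 1.26-fold to 1.67-fold, and 0 members passed a log2 fold change of 1 in either direction. All 20 called members had 1 sign in both replicates. Without the block 0 members and 0 genes in all were called by edgeR, with 5 members and 349 of all genes tested at an unadjusted p under 0.05, and leaving out any 1 of the 4 libraries, which breaks a pair and needs that unblocked fit, also left 0 members called. DESeq2 with the block gave an adjusted p to 43 of the 165 members and called 4 lower and 0 higher. Its background, over the 4683 genes given an adjusted p, was 8.16% called lower and 3.37% higher. Of the 20 members called by edgeR, 14 had an adjusted p from DESeq2, and 4 of these were called.

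**Figure D1:**
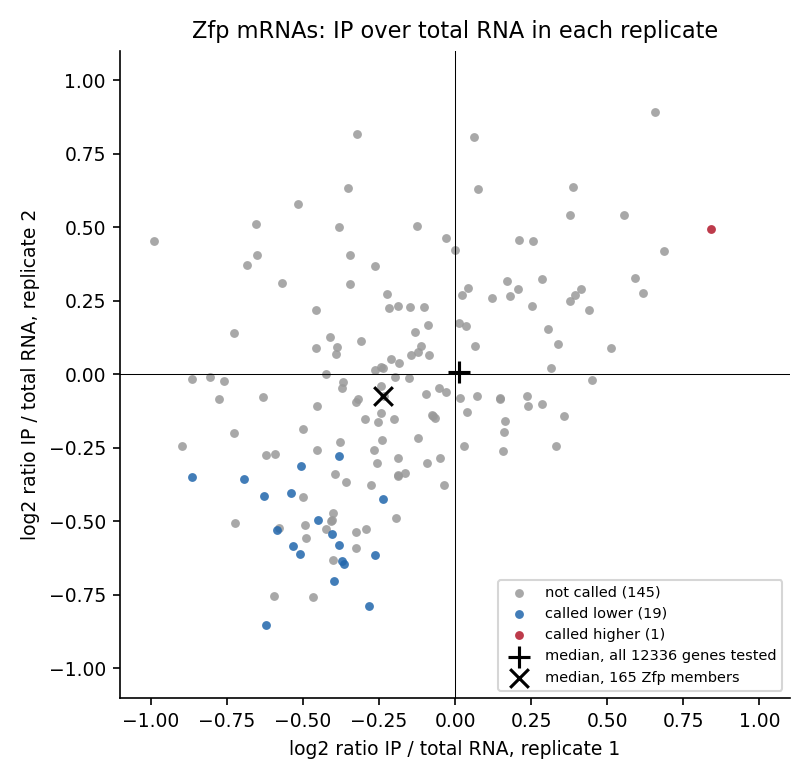
Log2 ratio of IP to total RNA in replicate 1 (horizontal axis) against replicate 2 (vertical axis) for the 165 Zfp members, 1 point per gene, coloured by call, with the medians of members and of all 12336 genes tested as crosses. The 19 called-lower members sit in the lower left, and the median of the members lies below that of all genes on both axes.

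The lowest member was Zfp523, the mouse counterpart of the human transcription factor gene ZNF76 (chr17:28177207-28205886, plus strand, mm10). It measured 25.1 and 19.0 CPM in the IP libraries of replicates 1 and 2, and 38.7 and 34.5 CPM in total RNA. Both IP values lay below both total RNA values, and the log2 fold change was −0.74 ± 0.15 (SE; adjusted p = 2.4e-05). It was called in 7 of 7 fits with the block. Members that were not called reached as low as −0.71.

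Next among the called members came Zfp335, a regulator of neural progenitor growth whose human counterpart is linked to microcephaly (chr2:164891882-164911757, minus strand). Its level was 30.9 and 32.1 CPM in the IP against 56.3 and 40.9 CPM in total RNA, and the groups did not overlap. The log2 fold change was −0.61 ± 0.13 (SE; adjusted p = 1.0e-04), larger in size in replicate 1 (−0.86) than in replicate 2 (−0.35).

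Zfp598 (chr17:24669752-24682015, plus strand) encodes the ubiquitin ligase that marks the small subunit of collided ribosomes. Its mRNA stood at 32.9 and 27.8 CPM in the IP against 49.4 and 40.3 CPM in total RNA, with no overlap. The log2 fold change was −0.56 ± 0.13 (SE; adjusted p = 6.5e-04), at −0.58 and −0.53 in replicates 1 and 2. Zfp704 (−0.56 ± 0.14; 30.4 and 21.5 CPM against 43.4 and 32.9 CPM) and Zfp865 (−0.56 ± 0.12; 43.0 and 38.0 CPM against 62.4 and 57.0 CPM) fell by a like amount. A caveat for Zfp865 is that 15.9% of its exonic bases overlap another gene on the same strand, where reads were not counted for either gene.

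Zfp13 measured 16.3 and 14.01 CPM in the IP against 19.8 and 24.3 CPM in total RNA (log2 fold change −0.55 ± 0.18, SE; adjusted p = 0.0194). Zfp423, a regulator of cerebellar and adipocyte development that works with several signalling pathways, measured 16.8 and 10.4 CPM against 22.3 and 17.1 CPM (−0.55 ± 0.19; adjusted p = 0.0322). In both genes the groups were apart, for Zfp423 by a margin of 16.8 to 17.1 CPM. Zfp219 was near the threshold (−0.54 ± 0.20; adjusted p = 0.0496), and its groups overlapped, with 15.03 and 10.1 CPM in the IP against 23.4 and 13.5 CPM in total RNA.

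The other 11 called-lower members, with log2 fold changes from −0.53 (Zfp358) to −0.33 (Zfp462), were Zfp358, Zfp282, Zfp532, Zfp316, Zfp608, Zfp746, Zfp777, Zfp622, Zfp236, Zfp142 and Zfp462. Zfp532 was among the most counted of these, at 81.8 and 77.4 CPM in the IP against 106 and 120 CPM in total RNA, and was the other member called in 7 of 7 fits (−0.51 ± 0.11; adjusted p = 1.0e-04). Zfp608 differed more between replicates than between IP and total RNA, with 25.7 and 12.1 CPM in the IP against 37.4 and 16.1 CPM in total RNA. Both of its ratios were nevertheless below 0, at −0.54 and −0.40. In 17 of the 19 called-lower members the IP libraries were both under the lower of the total RNA libraries, the exceptions being Zfp219 and Zfp608. Over all 165 members this held for 62, and the reverse for 16. The background was 14.9% of all genes tested with the IP wholly below and 16.9% wholly above.

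The 1 member called higher was Zfp266 (chr9:20495068-20521417, minus strand), a KRAB zinc finger gene. Its counts were 168 and 161 in the IP against 30 and 62 in total RNA, or 12.1 and 14.5 CPM against 6.68 and 10.2 CPM, with no overlap. The log2 fold change was 0.66 ± 0.24 (SE; adjusted p = 0.0416). The call was lost, though the fold was of like size, with scaling to the library totals alone (0.57), where 23 members were lower and 0 higher beside a background of 7.12% and 2.29%, and when GC content and length were corrected for (0.52). A larger value that missed the threshold belonged to Zfp949, at 7.16 and 7.81 CPM in the IP against 4.45 and 4.11 CPM (0.81 ± 0.32; adjusted p = 0.0684), named here after its values were seen.

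**Figure D2:**
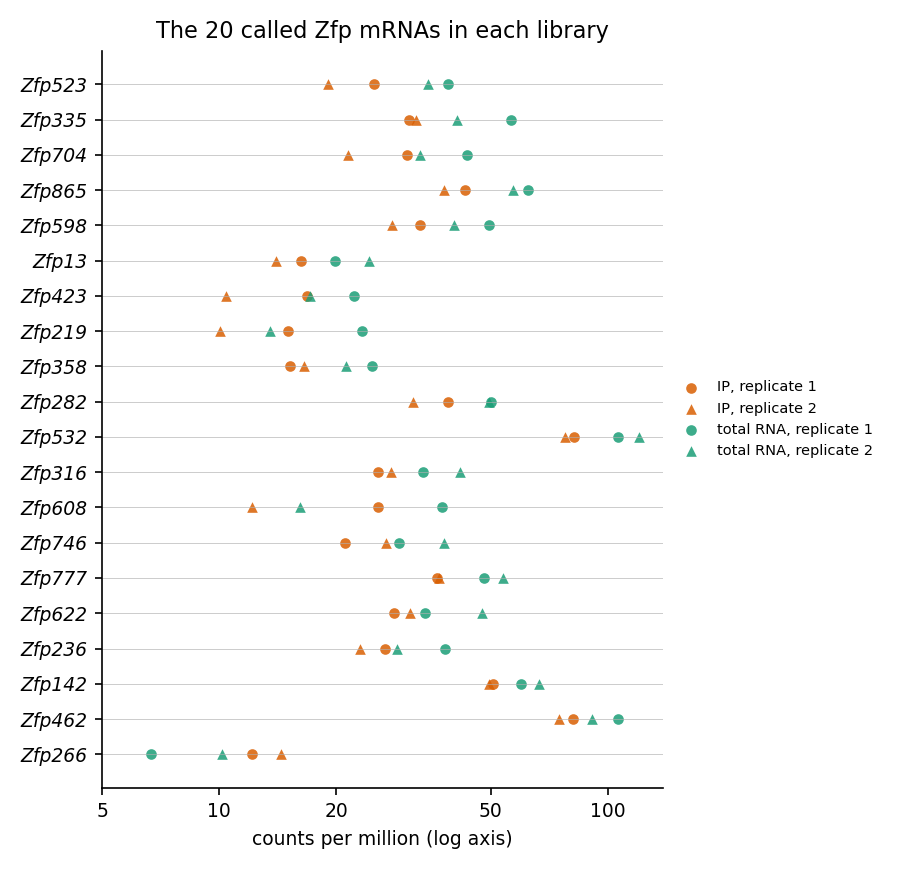
CPM in each of the 4 libraries (horizontal log axis) for the 20 called Zfp members, ordered by log2 fold change, with circles for replicate 1 and triangles for replicate 2. IP points (orange) lie to the left of total RNA points (green) of the same replicate in 19 genes and to the right in Zfp266.

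Base composition set the members apart from one another. GC content over the annotated transcripts had a Spearman correlation of −0.59 with the log2 fold change across the 165 members (−0.53 in replicate 1 and −0.47 in replicate 2), against −0.32 across 12328 tested genes with a GC value. Genes share libraries and are not independent replicates, so these correlations are descriptions. In the members the G or C share at the last codon position gave −0.53, whereas the number of finger patterns gave −0.0047 and exonic length 0.11. Length of the coding sequence was related to the ratio less closely in the members (−0.21) than in all genes (−0.43).

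In the 40 members under 45% GC the median log2 fold change was 0.10, with 1 called higher and 0 lower. It was −0.07 in the 42 members from 45% to 50% GC, with 3 called lower, and −0.21 in the 35 from 50% to 55%, with 6 called lower. In the 48 members at 55% GC and over it reached −0.43, with 43 (89.6%) below 0 and 10 (20.8%) called lower. Of all genes tested, 1.25%, 3.25%, 6.93% and 17.6% were called lower in these classes from GC-poor to GC-rich. The members' calls lower by class, at 0.0%, 7.14%, 17.1% and 20.8%, rose with GC as those of other genes did. From 45% to 55% GC the members' shares, on 3 and 6 calls, were above the background, and in the GC-rich class their share was near it. Called higher were 9.0%, 8.2%, 6.1% and 3.7% of all genes in these classes, against 2.5%, 0.0%, 0.0% and 0.0% of the members. The medians of all genes tested in the same classes ran from 0.16 through 0.07 and −0.02 to −0.15. The direction of the order by GC was therefore shared with other genes. In each class the members' median lay lower than that of all genes, by the widest margin in the GC-rich class. Zfp523 (58.3% GC), Zfp335 (59.6%) and Zfp598 (59.1%) belong to that class, Zfp266 (42.0%) to the GC-poor one, and Zfp622 (45.6%) had the lowest GC content of the called-lower members.

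With GC content and length as an offset in the fit, the members' median was −0.11 and that of all genes 0.02. The Spearman correlation of the log2 fold change with GC content was then −0.25 in the members and −0.01 in all genes. Members' medians still ran from 0.01 in the GC-poor class to −0.20 in the GC-rich class. The fit with the offset called 5 members lower (Zfp523, Zfp532, Zfp608, Zfp622 and Zfp275) and 0 higher, beside a background of 2.55% lower and 4.58% higher. The first 4 were called before, and Zfp275 is named for this call. The median of the members thus changed little while most single calls were lost.

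**Figure D3:**
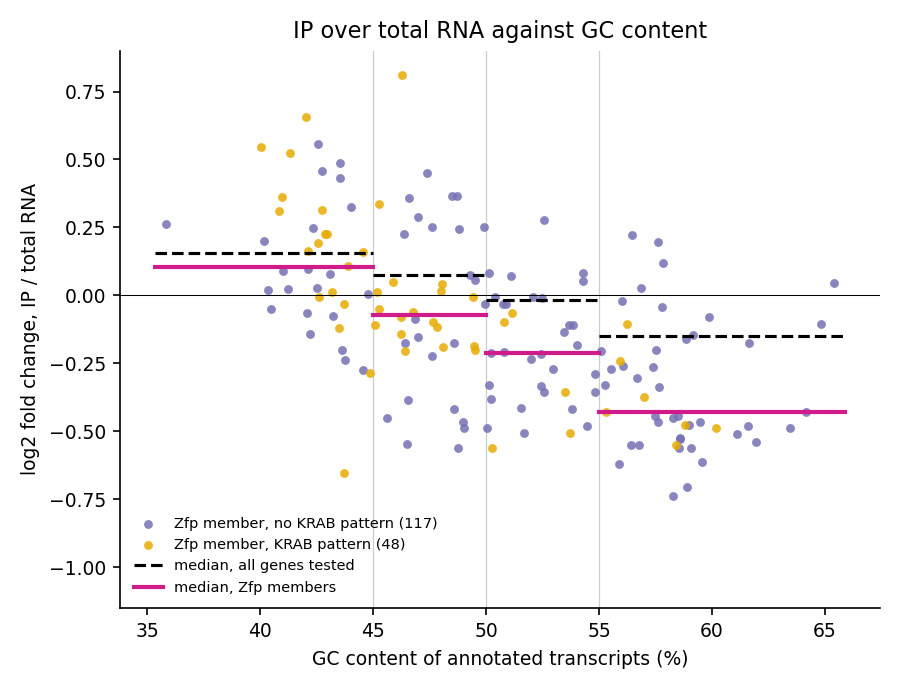
Log2 fold change of IP over total RNA (vertical axis) against GC content of the annotated transcripts in percent (horizontal axis), 1 point per Zfp member, with 48 carrying a KRAB pattern in yellow and 117 without in purple. Horizontal lines give the medians of members (solid) and of all genes tested (dashed) in 4 GC classes, and the solid line lies below the dashed one in each.

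The composition can be read in the coding sequence of a single conserved element, the linker of 7 residues that joins one finger to the next. It had 412 copies in 94 members, spelled by 276 different sequences, of which 200 occurred once. Below are 2 copies each from the called-higher Zfp266 and copies from Zfp13 and Zfp316, which were called lower (mm10, read from the GENCODE M21 transcripts, coding strand), with the last base of each codon in capitals. They were chosen after the values were seen, to show last bases of unlike composition in the same element, whose final residue is a phenylalanine in some copies and a tyrosine in others.
Zfp266, copy 2 (chr9:20499347-20499367, minus strand): caCacAggAgaGaaGccTttT
Zfp266, copy 3 (chr9:20499179-20499199, minus strand): caCacTggAgaGaaGccCtaT
Zfp13, copy 4 (chr17:23576294-23576314, minus strand): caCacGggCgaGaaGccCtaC
Zfp316, copy 3 (chr5:143253635-143253655, minus strand): caCacGggCgaGaaGccGttC
The last codon position was G or C at 3 and 4 of 7 in the Zfp266 copies and at 7 of 7 in those of Zfp13 and Zfp316. Over all copies the mean was 70.4% in the 6 called-lower members that have the linker (14 copies), 59.2% in members that were not called (395 copies) and 52.4% in Zfp266 (3 copies). Across the 94 members the mean of a gene's copies had a Spearman correlation of −0.44 with its log2 fold change and of 0.79 with the G or C share at all last codon positions of its coding sequence, so the linker largely repeats the composition of the gene around it.

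A KRAB pattern was found in 48 members, which is 29.1%, and in 112 of the 200 Zfp genes outside the set (56.0%). The pattern was strict and missed some known domains, that of Zfp57 among them. KRAB members had a median log2 fold change of −0.06 (−0.20 in replicate 1 and 0.05 in replicate 2), with 4 called lower (8.33%) and 1 higher (2.08%). Members without the pattern had a median of −0.18 (−0.26 and −0.11), with 15 called lower (12.8%) and 0 higher. The background was 7.55% called lower and 6.63% higher over all genes tested. It was 9.49% and 7.92% over genes that met the same minimum. KRAB members were also poorer in GC, at a median of 46.2% against 52.0%. By GC class, from poor to rich, the medians with and without the pattern were 0.18 and 0.05, −0.07 and −0.06, −0.35 and −0.21, and −0.43 and −0.43, with 18, 18, 5 and 7 KRAB genes, so neither kind was lower throughout. With the GC and length offset the medians were −0.13 and −0.11. The 6 members with a SCAN pattern had a median of 0.02, and 0 of them were called.

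The KRAB members called lower were Zfp13, Zfp282, Zfp316 and Zfp777. Zfp282 measured 38.9 and 31.5 CPM in the IP against 50.1 and 49.5 CPM in total RNA, and Zfp777 36.3 and 36.7 CPM against 48.1 and 53.6 CPM, with no overlap in either. Median log2 fold changes by the number of finger patterns were −0.11 for 0 to 3 fingers, −0.16 for 4 to 8, −0.07 for 9 to 14 and −0.11 for 15 and over, which shows no order. Zfp142, with 36 patterns the most of any member, was called lower (−0.33 ± 0.12; adjusted p = 0.0358).

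Zfp genes often lie in runs that arose by duplication, and chromosome 7 alone held 45 of the members. Of these 45, 1 was called lower (2.22%), namely Zfp865, beside 11.5% of all members and 7.55% of all genes tested. The median of the 45 was −0.15. The 56 members that lie in runs of 3 or more neighbouring Zfp genes had a median of −0.11, and the other 109 had −0.12. Shared sequence, which could remove reads that map to several genes, was rare: 112 members shared no stretch of 50 bases with a gene elsewhere. Zfp330 (31.3% of such stretches), Zfp422 (20.4%), Zfp384 (16.8%) and Zfp277 (10.4%) shared over 10% and are uncertain for that reason, while called members shared at most 1.24%.

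The role lists are short, and their counts stand beside the 11.5% of members and 7.55% of all genes called lower. Of the ribosome-linked genes, Zfp598 is described above. In addition Zfp622, which encodes a factor in the maturation of the large ribosomal subunit, was called lower, at 28.2 and 31.0 CPM in the IP against 33.9 and 47.5 CPM in total RNA (−0.45 ± 0.14, SE; adjusted p = 0.0109). Zfp593, whose product also acts in making the large subunit, had 7.30 and 13.1 CPM against 8.02 and 11.8 CPM (0.03 ± 0.25), and its groups overlapped. So 2 of these 3 genes passed the test, both lower, and the third did not.

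Of the 8 genes with known parts in neural development all 8 had a log2 fold change below 0, as 66.7% of the members did, and 3 were called lower, namely Zfp335, Zfp423 and Zfp462. With the GC and length offset 0 of these 3 were called, at −0.35, −0.37 and −0.19. Zfp462, which protects cell identity through heterochromatin, was at 81.6 and 75 CPM in the IP against 106 and 90.9 CPM in total RNA (−0.33 ± 0.11; adjusted p = 0.0222). Zfp521, a close relative of Zfp423, had a log2 fold change of −0.49 ± 0.28 that did not pass (adjusted p = 0.268). It varied most between replicates, at 9.83 and 3.50 CPM in the IP against 14.9 and 4.27 CPM in total RNA. The rest did not pass either, with Zfp536 at −0.21, Zfp407 at −0.20, Zfp365 at −0.15 and Zfp292 at −0.05. The signs of Zfp292 and Zfp536 were not stable, being 0.04 for Zfp292 in replicate 1 and 0.03 for Zfp536 with the GC and length offset.

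None of the 5 RNA-linked members was called. Zfp106 (−0.22 ± 0.11), whose loss causes motor neuron degeneration in mice, and Zfp207 (−0.24 ± 0.15), a spindle and splicing factor, were below 0 in both replicates. Zfp638 (0.09), Zfp346 (0.08) and Zfp326 (0.02) were above 0 in 1 replicate and below it in the other. Zfp36, which destabilises mRNAs of inflammation, had too few counts to be a member. Among the imprinting and retroelement genes, 2 of 7 were members and 0 were called: Zfp57, which guards imprints, at 11.4 and 5.03 CPM in the IP against 8.24 and 5.10 CPM (0.25 ± 0.28), and Zfp445, which acts in the same role, at 38.2 and 42.2 CPM against 39.6 and 43.6 CPM (−0.05 ± 0.13).

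Widely expressed transcription factors gave 7 members and 0 calls. Zfp384 (−0.27), Zfp64 (−0.26), Zfp609 (−0.23) and Zfp131 (−0.14) had values below 0, and Zfp281 (0.08), Zfp148 (0.10) and Zfp24 (0.25) had values above. Of the members with the most counts per kilobase, Zfp703, at 22.5 CPM per kilobase the highest, had 75.1 and 67.9 CPM in the IP against 86.4 and 75.5 CPM in total RNA (−0.18 ± 0.11; adjusted p = 0.32). Zfp428 (20.7 CPM per kilobase), Zfp580 (12.7) and Zfp365 (12.5) were not called, and Zfp777 (12.2) was. The median member had 2.78 CPM per kilobase against 3.71 over all genes tested, and 58 of the 165 exceeded the latter.

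**Figure D4:**
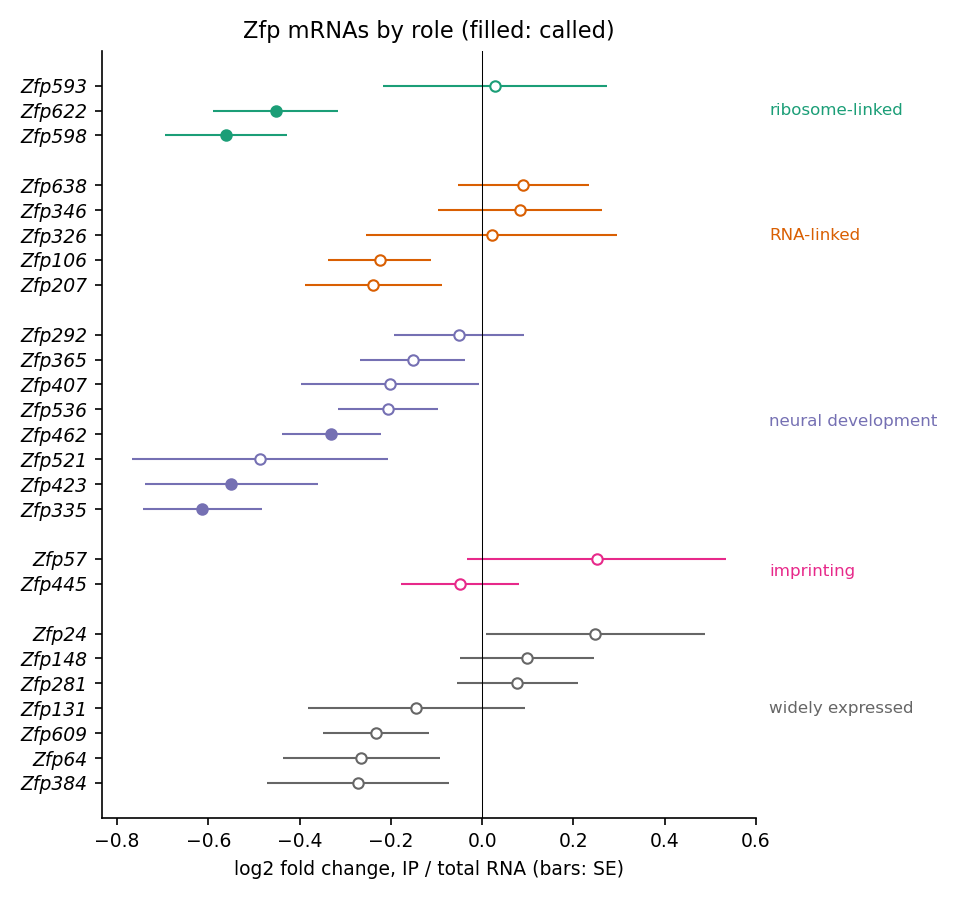
Log2 fold change of IP over total RNA with its standard error (horizontal axis) for the 25 Zfp members of 5 role lists, coloured by list. Filled points (Zfp598, Zfp622, Zfp335, Zfp423 and Zfp462) were called lower, open points were not called, and all 8 neural development genes lie to the left of 0.

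Of the 17 genes listed for the TRIM28 pathway 16 were tested, with 1 called higher (6.25%) and 2 lower (12.5%). This was close to the background of 6.63% higher and 7.55% lower at this number of genes. Cbx5, which encodes the heterochromatin protein HP1α, rose (29.3 and 28.6 CPM in the IP, against 20.5 and 20.7 CPM; log2 fold change 0.49, adjusted p = 0.0187). Chd3, a remodeller of the NuRD complex (−0.45; adjusted p = 1.6e-04), and Dnmt1, the maintenance DNA methyltransferase (−0.31; adjusted p = 0.0294), fell. The GC and length offset brought Chd3 to −0.20, Dnmt1 to −0.17 and Cbx5 to 0.42. With it 0 genes of this list were called higher and 1 was called lower, beside a background of 4.58% higher and 2.55% lower. Hdac2, not called without the offset (−0.24), then had the value furthest from 0 in the list (−0.45). Trim28 itself had a log2 fold change of −0.24 that did not pass (adjusted p = 0.111). Other families with zinc fingers gave medians of −0.17 for 36 Zbtb genes, −0.12 for 20 Zkscan and Zscan genes, −0.12 for 16 Zc3h genes and −0.02 for 15 Klf genes. Calls in these families were 3 lower and 1 higher, 2 lower, 2 lower and 0, and a difference between them and the Zfp members was not tested.

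Most calls fell on the members with more counts. Among the 51 members with at least 100 counts in every library, 16 were called lower (31.4%) and 0 higher. In these 51 members, 45 lay below 0, and the median log2 fold change was −0.24. Among the 114 with fewer in some library, 3 were called lower (2.63%) and 1 higher (0.88%), and the median was −0.05. The share called among all genes of the same depth was not computed, so these shares have no matching background. The deeper members were also richer in GC, at a median of 52.6% against 49.0%. Standard errors ran from 0.11 to 0.40 over the members with a median of 0.21, so that a change of the size seen in Zfp622 was not detectable in the least counted. The members just inside the minimum, Zfp647 (lowest count 20), Zfp90 (20) and Zfp618 (20), had log2 fold changes of −0.24, −0.19 and −0.14, and those just outside, Zfp438 (19), Zfp952 (18) and Zfp938 (18), had −0.35, 0.10 and −0.38. The 99 Zfp genes that were tested but were not members had a median of 0.09 and a median GC content of 43.2%, with 1 called lower and 0 higher.

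Between replicates the members varied at least as much as between IP and total RNA. The SD over members of the log2 ratio was 0.36 in each replicate for IP over total RNA, 0.41 from one IP library to the other and 0.43 from one total RNA library to the other. The difference between replicates 1 and 2 had the same sign in IP and total RNA for 113 of the 165. Only Zfp521 and Zfp608 exceeded 2-fold between replicates in both, and each was higher in replicate 1, the replicate with more astrocyte and microglia marker RNA. In such bulk samples fewer cells of a type and less RNA per cell cannot be told apart.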

How the data were processed

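The deposited values were counts: per the file headers, the authors counted stranded reads per gene with featureCounts 1.5.3 (strand setting 1) on an mm10 annotation, after trimming with cutadapt and end-to-end alignment with STAR per the study's methods. Reads at several loci or in several genes were not counted. No removal of PCR duplicates was stated, so the counts may include PCR copies of the same molecule.

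In edgeR 4.0.16 (R 4.3.3), filterByExpr left 12336 genes, TMM set the scale of the libraries, and the two-sided quasi-likelihood test compared IP and total RNA, with Benjamini-Hochberg adjustment over all genes tested and a threshold of 0.05. The replicate number was a block, since each total RNA sample was part of an IP sample. Deviations of same-numbered libraries from their group means correlated at 0.733. This fit leaves 1 residual degree of freedom, and all genes share the fitted dispersion (biological coefficient of variation 7.93%), so the p-values lean on that trend and on the spread among 2 pairs, which may be technical. CPM used the effective library sizes, and ratios within a replicate a prior count of 2. The SE was taken from the fold change and its F statistic. Alternatives were no block, other scalings and filters, DESeq2 1.42.0, a GC and length offset, omission of a library or pair, and a member minimum of 50. Sets of all Zfp genes tested, and of as many by mean CPM, were added after seeing the data.

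Finger, KRAB and SCAN patterns were sought in coding transcripts of GENCODE M21 translated by script, in place of the RefSeq proteins first planned. GC content was averaged over annotated transcripts. Runs joined Zfp genes with gaps up to 200000 bases. Genes were named if on a role list, called, highest per kilobase or next to the minimum. The members and lists were chosen with earlier results of these data known.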

Additional observations from a re-analysis of the deposited data

How the results depend on the processing

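The negative sign of the members' median log2 fold change (−0.12 as reported) held in every alternative run, at −0.094 with no filter on low counts, −0.24 without replicate 2 and −0.074 without replicate 1. It was −0.064 over all 264 Zfp genes tested, with 20 called lower and 1 higher, a set added after seeing the data. Scaling by library totals alone moved the median of all genes to −0.07 and that of the members to −0.20. The median of the KRAB members ran from −0.20 to 0.11 as libraries or pairs were left out, changing sign, and that of the members without a KRAB pattern from −0.26 to −0.11. Calls depended on the design. The count of members called lower was 19 as reported, 13 to 23 under other scalings and filters with the block, 4 with DESeq2 (43 of the 165 had an adjusted p), 5 with the GC and length offset, and 0 in the fit with no replicate block or with any 1 library left out, a setting that assumes a lone library varies like the other group. The count called higher was 1 as reported, 2 with at least 10 counts required in every library, and 0 with no replicate block, library totals alone, DESeq2, the GC and length offset, a member minimum of 50 counts, or any 1 library left out. The cause was not tested.

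Among single genes that were not called, signs changed with library totals alone for Zfp281 (−0.0057), Zfp326 (−0.061), Zfp346 (−0.0061), Zfp580 (−0.040) and Zfp593 (−0.065). With the GC and length offset they changed for Zfp281 (−0.11), Zfp326 (−0.12), Zfp428 (0.086), Zfp536 (0.028), Zfp618 (0.045) and Zfp703 (0.092). With no replicate block Zfp326 changed (−0.0017), and with DESeq2 Zfp593 (−0.0043). With a library or pair left out, log2 fold changes ranged across 0 for Zfp131 (−0.68 to 0.37), Zfp148 (−0.041 to 0.21), Zfp281 (−0.074 to 0.24), Zfp292 (−0.24 to 0.15), Zfp326 (−0.52 to 0.58), Zfp346 (−0.38 to 0.50), Zfp428 (−0.32 to 0.088), Zfp445 (−0.13 to 0.020), Zfp521 (−1.43 to 0.65), Zfp57 (−0.40 to 0.77), Zfp580 (−0.15 to 0.23), Zfp593 (−0.46 to 0.39), Zfp618 (−0.41 to 0.17), Zfp638 (−0.10 to 0.29), Zfp647 (−0.99 to 0.45) and Zfp90 (−0.46 to 0.088). The 1 called member that did so was Zfp608 (−1.13 to 0.23), whose sign turned without total RNA replicate 1.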
